A study of Homo sapiens with 8 samples.

Results

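Transcript levels of 10 genes of the unfolded protein response and of protein folding in the endoplasmic reticulum (ER) were followed in the human colorectal cancer line HCT116. They comprise HSPA5, XBP1, DNAJB9, HERPUD1, SDF2L1, HSP90B1, ATF6, ERN1, PDIA4 and CALR. They were chosen by name as ER stress sensors and ER chaperones, with earlier results of these data known. Taken by their Ensembl identifiers from 78932 genes in the deposited tables, all 10 were found and passed the filter on low counts. The cells carried a dTAG degradation tag on NUDT21, which encodes the RNA-binding small subunit of the 3′ processing factor CFIm. In 4 libraries the cells had received DMSO with JTE-607, and in 4 they had received dTAGV1 with JTE-607. dTAGV1 directs a tagged protein to degradation, DMSO is a solvent, and JTE-607 inhibits CPSF73, the nuclease that cuts pre-mRNA at poly(A) sites. Both groups thus had JTE-607, and no library without it was analysed here. Doses, treatment times and whether the tagged line is a single clone are not given in the sources used here. Nothing in the labels says that replicates were separate cultures, so p-values measure the spread between these libraries only.

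The unfolded protein response adjusts the folding capacity of the ER. HSPA5 (BiP) holds the sensors ERN1 (IRE1), ATF6 and EIF2AK3 (PERK) inactive until unfolded proteins draw it away. ERN1 then splices XBP1 mRNA, ATF6 moves to the Golgi and is cut by the proteases MBTPS1 and MBTPS2, and EIF2AK3 phosphorylates the initiation factor eIF2alpha, which favours translation of ATF4. ATF6 and spliced XBP1 bind promoter elements of chaperone and degradation genes, together with the CCAAT-binding factor NF-Y at some of them. Secretory epithelial cells rely on this response, and cancer lines often keep part of it active.

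Promoter sequences are shown for genes that hold a known element of the response, 2 that rose and 2 that did not pass the test. Windows of 300 bases, 250 before and 50 after the start site, came from RefSeq on GRCh38.p14 and existed for all 10 genes. They were searched on either strand for the ER stress response element (CCAAT, then any 9 bases, then CCACG), for element II (ATTGG, then any 1 base, then CCACG) and for TGACGTG, the core of the element that XBP1 binds. Each of the first 2 motifs contains CCACG, which 38.1% of all 35116 windows hold by itself. The ER stress response element was found in 27 windows, or 0.0769%, element II in 19, or 0.0541%, and TGACGTG in 1.97%. TGACGTG was in no window of the 10 genes, which says only that these letters are not there. Below are the 250 bases before the start site of HSPA5 (chr9:125241344-125241593, minus strand), XBP1 (chr22:28800570-28800819, minus strand), HERPUD1 (chr16:56931892-56932141, plus strand) and SDF2L1 (chr22:21642052-21642301, plus strand). They are written 5′ to 3′ on the strand of the gene, with the element in capitals.
HSPA5: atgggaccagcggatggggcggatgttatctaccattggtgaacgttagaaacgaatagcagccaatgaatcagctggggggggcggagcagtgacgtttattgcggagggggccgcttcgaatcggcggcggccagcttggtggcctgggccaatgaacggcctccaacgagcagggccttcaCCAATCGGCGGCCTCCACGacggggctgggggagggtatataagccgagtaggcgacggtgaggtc
XBP1: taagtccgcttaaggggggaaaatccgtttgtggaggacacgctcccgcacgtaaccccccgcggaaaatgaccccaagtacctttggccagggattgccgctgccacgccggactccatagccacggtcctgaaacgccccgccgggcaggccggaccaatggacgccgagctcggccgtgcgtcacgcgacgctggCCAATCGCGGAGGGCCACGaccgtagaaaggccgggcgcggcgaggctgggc
HERPUD1: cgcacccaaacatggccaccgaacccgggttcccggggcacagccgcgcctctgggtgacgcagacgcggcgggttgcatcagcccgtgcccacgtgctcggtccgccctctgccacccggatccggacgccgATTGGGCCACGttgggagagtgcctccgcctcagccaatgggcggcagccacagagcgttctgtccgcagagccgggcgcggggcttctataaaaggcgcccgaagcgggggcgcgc
SDF2L1: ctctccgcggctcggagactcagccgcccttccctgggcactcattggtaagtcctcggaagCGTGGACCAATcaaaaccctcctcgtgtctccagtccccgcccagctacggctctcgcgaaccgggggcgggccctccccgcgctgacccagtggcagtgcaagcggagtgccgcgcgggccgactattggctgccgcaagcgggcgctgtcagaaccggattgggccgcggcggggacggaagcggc

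Element by element, with the fixed bases in capitals and each read in the direction of its motif, the matches of the 10 genes were as follows. HSP90B1 held 2 of them, and those of CALR and SDF2L1 and the second of HSP90B1 lay on the strand opposite to the gene.
HSPA5: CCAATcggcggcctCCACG
XBP1: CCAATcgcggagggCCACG
HSP90B1, first: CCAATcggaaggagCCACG
HSP90B1, second: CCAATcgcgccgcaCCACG
CALR: CCAATgatggtcgaCCACG
HERPUD1: ATTGGgCCACG
SDF2L1: ATTGGtCCACG

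The elements of XBP1 and HSPA5 began 52 and 66 bases before the start site, that of HERPUD1 117, and that of SDF2L1 188. ATF6, ERN1, PDIA4 and DNAJB9 held no full match of either motif. Only exact matches were searched, so near matches are not listed. HERPUD1 also holds ccaatgggcggcagccaca, which differs from the ER stress response element only in its last base. A match describes the letters of the window and shows no binding.

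Levels are given in CPM, counts on the strand of the gene per 1000000 of the library after TMM scaling. The libraries held 3447842 to 4291256 such counts. Reads come from the 3′ ends of transcripts, so counts do not grow with transcript length and none was divided by it. NUDT21, the tagged gene, had 32.2 ± 2.81 CPM in the DMSO libraries and 8.25 ± 2.62 in the dTAGV1 libraries (SD, n = 4 each), although the tag acts on protein. The epithelial markers EPCAM, KRT8, KRT18, KRT19, CDH1 and CLDN4 were all measured, with summed levels of 1716 to 2000.1 unscaled CPM with DMSO and 1309 to 1399 with dTAGV1. They did not move together: EPCAM was higher, at 0.28 on the log2 scale, CDH1 (0.02) and KRT8 (-0.38) were not called, and KRT18, KRT19 and CLDN4 were lower. KRT19, the most abundant, went from 786 to 499 CPM. Of 7 markers of immune, stromal and endothelial cells, 6 were under the filter with at most 7 counts in any library, and COL1A1 was at 15.6 CPM over the 8 libraries. Among uniquely mapped reads, those without a sense-strand gene were 30.1% to 33.7% with DMSO and 35.9% to 37.4% with dTAGV1. Unmapped reads were 27.7% to 28.9% of reads with DMSO. In dTAGV1 replicates 1 to 4 they were 30.3%, 29.9%, 24.9% and 20.4%, so these libraries differed among themselves. The part of these shifts in the results was not tested. In bulk libraries, fewer cells with a transcript and less of it per cell cannot be told apart.

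Of the 10 genes, 8 were higher with dTAGV1 and 0 lower, while HERPUD1 and SDF2L1 did not pass the test (p under 0.05 in edgeR's quasi-likelihood test after Benjamini-Hochberg adjustment over 12618 genes). This stands against 57.9% of all tested genes that were called, 29.4% called higher and 28.5% called lower. The 8 increases were 1.46-fold to 2.10-fold, and the median log2 fold change of the 10 genes was 0.64, beside 0.01 for all tested genes. The same 8 had every dTAGV1 library above every DMSO library, which held for 25.8% of tested genes, with 50.9% separated in either direction. By point estimate only DNAJB9 rose more than 2-fold, as did 7.35% of tested genes, and 9.23% fell by more than 2-fold. Together the 10 genes took 0.216% to 0.234% of the sense counts with DMSO and 0.311% to 0.344% with dTAGV1.

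**Figure D1:**
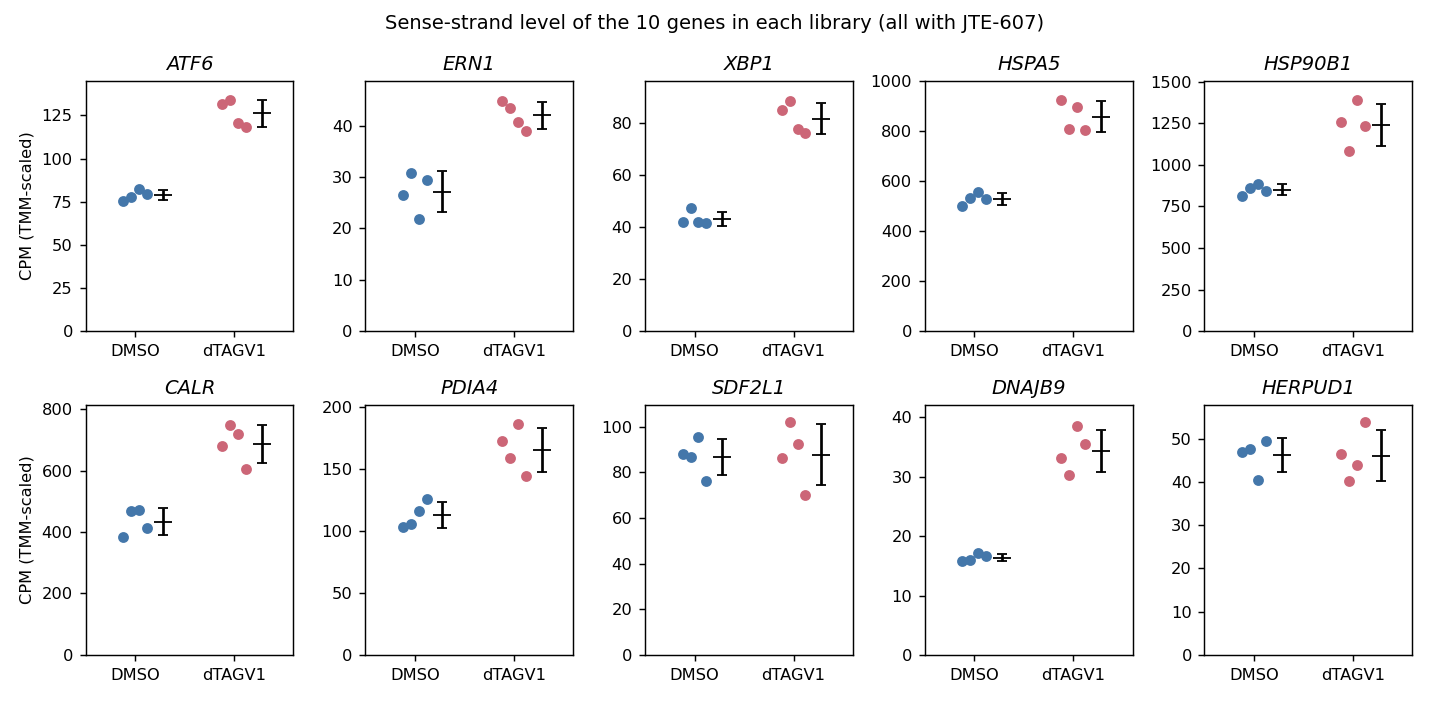
Level of each of the 10 genes in CPM (vertical axes, from 0) in the 4 DMSO and 4 dTAGV1 libraries, with points for libraries in the order of replicates 1 to 4 and bars for the mean and SD. The groups are apart for 8 genes and overlap for SDF2L1 and HERPUD1.

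The sensors were both higher. ATF6 (chromosome 1, 161766294 to 161964070, plus strand), the membrane-bound factor released by cleavage in the Golgi, was at 75.4, 77.9, 82.4 and 79.4 CPM in DMSO replicates 1 to 4 and at 132, 134, 121 and 118 in dTAGV1 replicates 1 to 4. The lowest dTAGV1 library lay well above the highest DMSO library. On the log2 scale the rise was 0.68, with its standard error (SE) at 0.08 (edgeR, adjusted p = 1.10e-07), and 2 SE on either side reached from 1.43-fold to 1.79-fold. ERN1 (chromosome 17, 64039142 to 64130819, minus strand), the kinase and endonuclease that splices XBP1 mRNA, was at 26.5, 30.9, 21.9 and 29.4 CPM with DMSO and at 44.8, 43.5, 40.7 and 39.0 with dTAGV1. Among the 8 genes that rose, its DMSO libraries were the most spread relative to their mean, at 27.2 ± 3.97 CPM (SD, n = 4). Its log2 fold change was 0.62 (SE 0.12, edgeR adjusted p = 0.000112).

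XBP1, which encodes the transcription factor made after ERN1 splices its mRNA, had the second-largest rise of the 10. Its levels (chromosome 22, 28794555 to 28800597, minus strand) were 42.1, 47.3, 41.9 and 41.5 CPM with DMSO and 84.7, 88.2, 77.5 and 76.2 with dTAGV1. Means were 43.2 ± 2.72 and 81.6 ± 5.78 CPM (SD, n = 4 each), and the log2 fold change was 0.92 (SE 0.10, edgeR adjusted p = 1.11e-08). These reads count the gene as a whole, and the spliced form was not told apart from the unspliced one. XBP1 holds the ER stress response element printed above.

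HSPA5, HSP90B1, CALR and PDIA4, which fold proteins in the ER lumen, were each higher. HSPA5 (chromosome 9, 125234853 to 125241330, minus strand), the HSP70 of the ER, was at 500.1, 532, 559 and 530.4 CPM with DMSO and at 924, 809.9, 898 and 805 with dTAGV1. No library of one group reached the other, and the log2 fold change was 0.70 (SE 0.07, edgeR adjusted p = 4.74e-09). HSP90B1 (chromosome 12, 103930107 to 103953645, plus strand), the HSP90 of the ER, was the most abundant of the 10. It was at 812, 863, 887 and 841 CPM with DMSO and at 1259, 1084, 1389 and 1230.1 with dTAGV1, where replicate 3 was highest. Its rise was the smallest of the 8, with a log2 fold change of 0.54 (SE 0.07, edgeR adjusted p = 5.27e-07).

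CALR (chromosome 19, 12938578 to 12944489, plus strand), a lectin chaperone that binds calcium and monoglucosylated glycoproteins, was at 384, 469.6, 471 and 412 CPM with DMSO and at 679, 749, 718 and 605 with dTAGV1. Counted without regard to strand, CALR kept 4978 reads against 16655 on its own strand. AC092069.1 overlaps it on the other strand, so its value rests on strand-specific counting. The groups did not overlap, and the log2 fold change was 0.66 (SE 0.08, edgeR adjusted p = 1.05e-07). PDIA4 (chromosome 7, 149003062 to 149028641, minus strand), a disulfide isomerase, was at 103, 106, 116 and 126 CPM with DMSO and at 172, 159, 186 and 144 with dTAGV1. Its log2 fold change was 0.55 (SE 0.09, edgeR adjusted p = 6.98e-06). Its highest DMSO library, at 126 CPM, lay below its lowest dTAGV1 library, at 144.

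SDF2L1 and HERPUD1 had overlapping groups. SDF2L1 (chromosome 22, 21642261 to 21644298, plus strand) encodes a partner of the HSP40 protein DNAJB11 that keeps HSPA5 substrates from aggregating. Its levels were 88.0, 86.8, 95.5 and 76.2 CPM with DMSO and 86.2, 102, 92.5 and 70.2 with dTAGV1, so that the highest and the lowest of the 8 libraries were both dTAGV1. The log2 fold change was 0.01 (SE 0.10, edgeR adjusted p = 0.923), and it turned negative, to -0.06, under library-size scaling. In fold terms, 2 SE on either side reached from 0.876 to 1.16.

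HERPUD1 (chromosome 16, 56932048 to 56944863, plus strand) encodes a membrane protein that gathers the ubiquitin ligase complex of ER-associated degradation. Its levels were 47.0, 47.8, 40.6 and 49.5 CPM with DMSO and 46.5, 40.2, 43.9 and 53.9 with dTAGV1. The groups overlapped fully, and the log2 fold change was 0.00 (SE 0.11, edgeR adjusted p = 0.985), with a negative sign of at most -0.07 under RLE or library-size scaling. The interval of 2 SE ran from 0.86-fold to 1.17-fold, below the 1.46-fold of HSP90B1. AC012181.1, which overlaps HERPUD1 on its own strand, had 49 reads in all 8 libraries, and no exon of it overlaps one of HERPUD1 in GENCODE 29. SDF2L1 and HERPUD1 are well known targets of the response, and both hold element II.

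DNAJB9 (chromosome 7, 108569568 to 108574850, plus strand), an HSP40 cochaperone of HSPA5 that also returns ERN1 to its inactive form, had the largest rise and the lowest level. It was at 15.8, 15.9, 17.1 and 16.6 CPM with DMSO and at 33.2, 30.2, 38.6 and 35.5 with dTAGV1. Counts were 58 to 67 with DMSO and 100 to 150 with dTAGV1. The log2 fold change was 1.07 (SE 0.13, edgeR adjusted p = 1.87e-07), larger than that of 93.6% of tested genes. The interval of 2 SE ran from 1.75-fold to 2.52-fold, and library-size scaling gave a log2 fold change of 0.997. A rise of more than 2-fold is thus not firm. Exons of THAP5 and PNPLA8 overlap it on the other strand, and no read of DNAJB9 was on that strand in any library. THAP5 had a log2 fold change of 0.13 (edgeR, adjusted p = 0.352) and PNPLA8 one of 0.18 (edgeR, adjusted p = 0.148).

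**Figure D2:**
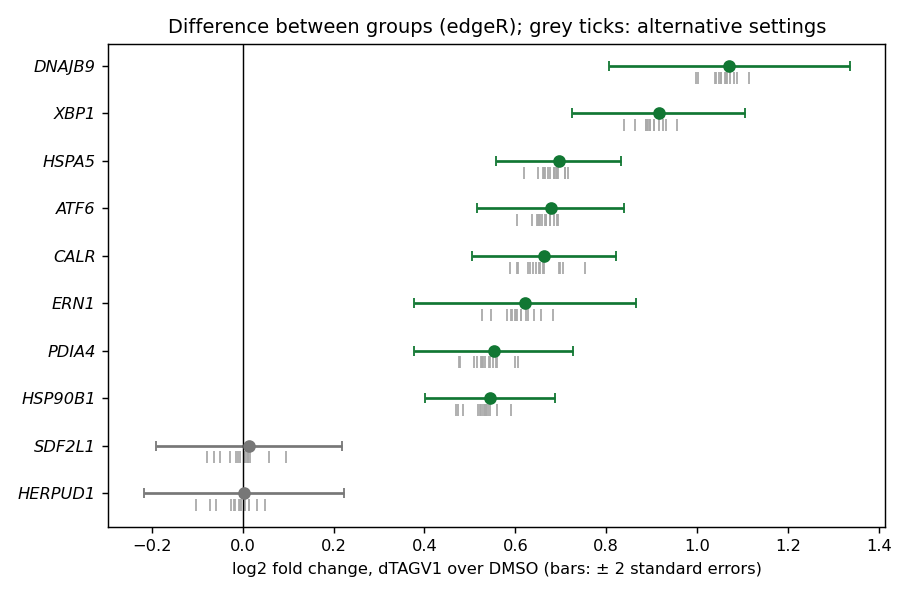
Log2 fold change of each gene (points, horizontal axis) with bars of 2 standard errors on either side, green where the adjusted p was under 0.05 and grey otherwise, and grey ticks for the same value under the alternative settings. The 8 green genes lie between 0.54 and 1.07 with every tick above 0, and the ticks of SDF2L1 and HERPUD1 fall on both sides of 0.

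In the order of levels with DMSO, HSP90B1, HSPA5, CALR and PDIA4 came first without overlap between neighbours. SDF2L1 (76.2 to 95.5 CPM) and ATF6 (75.4 to 82.4) followed and overlapped, as did HERPUD1 (40.6 to 49.5) and XBP1 (41.5 to 47.3), before ERN1 and DNAJB9. With dTAGV1, ATF6 (118 to 134 CPM) lay above SDF2L1 (70.2 to 102) without overlap. XBP1 (76.2 to 88.2) lay above HERPUD1 (40.2 to 53.9), while ERN1 (39.0 to 44.8) now overlapped HERPUD1.

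Ratios within a library do not depend on the scaling, and they are given here as a description with no test, chosen after the levels were seen. SDF2L1 had 17.6, 16.3, 17.1 and 14.4 reads per 100 reads of HSPA5 with DMSO and 9.33, 12.6, 10.3 and 8.73 with dTAGV1. HERPUD1 had 9.40, 8.98, 7.25 and 9.32 with DMSO and 5.03, 4.96, 4.89 and 6.70 with dTAGV1. In both cases every dTAGV1 library was lower. DNAJB9 went the other way, from 2.99 to 3.17 with DMSO to 3.59 to 4.41 with dTAGV1. HSP90B1 declined relative to HSPA5, from 159 to 162 down to 134 to 155. The ratios of XBP1, ATF6, ERN1, PDIA4 and CALR overlapped between groups, and that of ATF6 had means of 14.9 and 14.7. HSPA5 itself rose, so these ratios restate the fold changes above and are no separate result. How many other genes have separated ratios to HSPA5 was not counted.

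**Figure D3:**
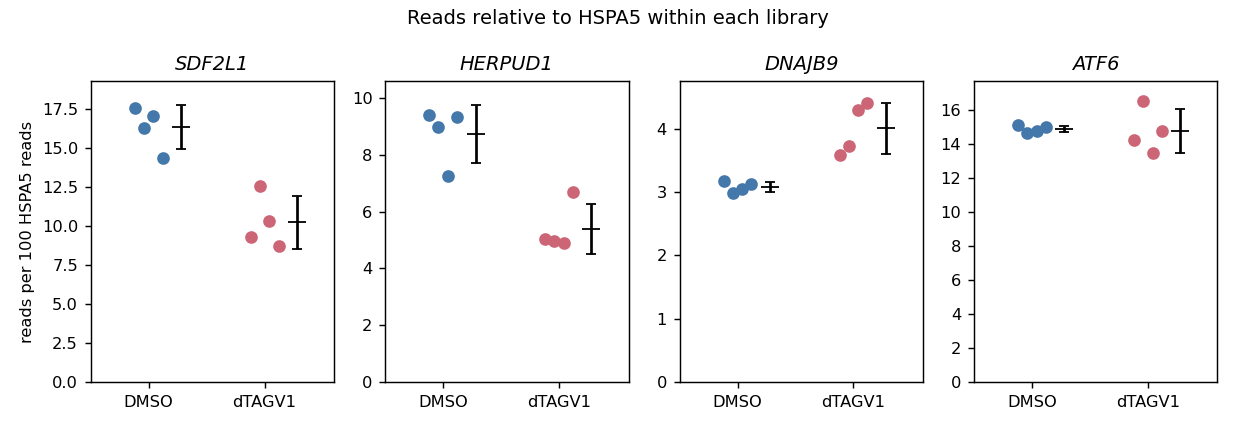
Reads of 4 genes per 100 reads of HSPA5 in each library (vertical axes, from 0), with bars for the mean and SD of 4 libraries. SDF2L1 and HERPUD1 are lower relative to HSPA5 in every dTAGV1 library, DNAJB9 is higher, and ATF6 overlaps. HSPA5 itself rose, so the ratios restate the fold changes.

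The other genes of the pathway were taken from 6 lists by role, 104 genes without the 10 above, also chosen with earlier results known. Of 95 tested, 54 (56.8%) were higher, 10 lower and 31 not called, with a median log2 fold change of 0.37. Over all tested genes, 57.9% were called, 29.4% higher and 28.5% lower, with a median of 0.01, and the counts of each list below are read against these shares. Among 11 tested sensors and partners, 5 (45.5%) were higher and 1 lower, with a median of 0.28, and the 54.5% called was near the share of all tested genes. MBTPS1, the site-1 protease that makes the first cut in ATF6, rose by 1.00 on the log2 scale, from 243 ± 3.72 to 487 ± 21.8 CPM (SD, n = 4 each). MBTPS2, the protease of the second cut, fell by 0.76 on the log2 scale with groups that overlapped (edgeR, adjusted p = 0.0133). EIF2AK3, the third sensor, rose by 0.98 and CREB3L2, an ATF6-related factor, by 0.62 on that scale. ATF6B had 3 counts in all and ERN2 had 0, and neither was tested. Reads given to no gene are not in these counts, so a low count need not mean an absent transcript.

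Among 13 tested chaperones and cochaperones, 8 (61.5%) were higher, against 29.4% of all tested genes, and 2 lower, with a median of 0.40. SIL1, the nucleotide exchange factor of HSPA5, rose by 1.61 on the log2 scale, from 23.5 ± 3.50 to 72.0 ± 13.9 CPM (SD, n = 4 each). DNAJC3 (p58IPK), an HSP40 cochaperone and inhibitor of EIF2AK3, rose by 1.14 and PPIB, a proline isomerase, by 0.77 on the log2 scale. DNAJC10, an HSP40 with disulfide reductase activity, fell by 0.77 and MANF, a secreted factor that binds HSPA5, by 0.30, with overlapping groups for MANF. HYOU1, the other exchange factor of HSPA5, was at 0.24 (edgeR, adjusted p = 0.156). Of 15 tested disulfide enzymes, 11 (73.3%) were higher, against 29.4% of all tested genes, and 0 lower, with a median of 0.57. ERO1B, an oxidase of disulfide isomerases, rose by 1.49, P4HB, the founding disulfide isomerase, by 1.11 and PRDX4, a peroxiredoxin, by 0.98 on the log2 scale.

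ER-associated degradation returns misfolded proteins to the cytosol. Of its 23 tested genes, 9 (39.1%) were higher, 3 lower and 11 not called, with a median of 0.23. The 52.2% called was near the 57.9% of all tested genes, and no change of the list as a whole is read from it. SEL1L, the scaffold of the ligase SYVN1, had the largest rise of these lists, from 43.2 ± 1.86 to 162 ± 4.14 CPM (SD, n = 4 each), or 1.91 on the log2 scale (edgeR, adjusted p = 2.80e-15). SYVN1 itself was at 0.23 (edgeR, adjusted p = 0.07). The lectins ERLEC1 and OS9, which bring glycoproteins to SEL1L, rose by 1.05 and 0.91 on the log2 scale. EDEM3, a mannosidase, fell by 0.42, FAM8A1, a cofactor of SYVN1, by 0.30 and UBE2G2, a ubiquitin-conjugating enzyme, by 0.26.

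Among 24 tested translocation genes, 14 (58.3%) were higher, against 29.4% of all tested genes, and 4 lower, with a median of 0.33. The signal peptidase subunit SEC11C rose by 1.09, SSR2 of the translocon-associated complex by 0.81 and the receptor subunit SRPRB by 0.71 on the log2 scale. SEC11A, the other catalytic subunit of signal peptidase, fell by 0.65 and SPCS2, one of its accessory subunits, by 0.76. In the arm of EIF2AK3 and ATF4, 7 of 9 tested genes (77.8%) were higher, against 29.4% of all tested genes, and 0 lower. CHAC1 rose by 1.49, ATF3 by 1.43 and DDIT3 (CHOP) by 1.35 on the log2 scale, and ATF4 was at 0.24 (edgeR, adjusted p = 0.0796). CHAC1, with an SE of 0.34, was near the naming limit, at 3.71 to 8.74 CPM with DMSO and 11.2 to 30.3 with dTAGV1. For CHAC1, ATF3 and DDIT3 the highest library was dTAGV1 replicate 1. Under the alternative settings, 6 to 9 genes of this arm were called higher.

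**Figure D4:**
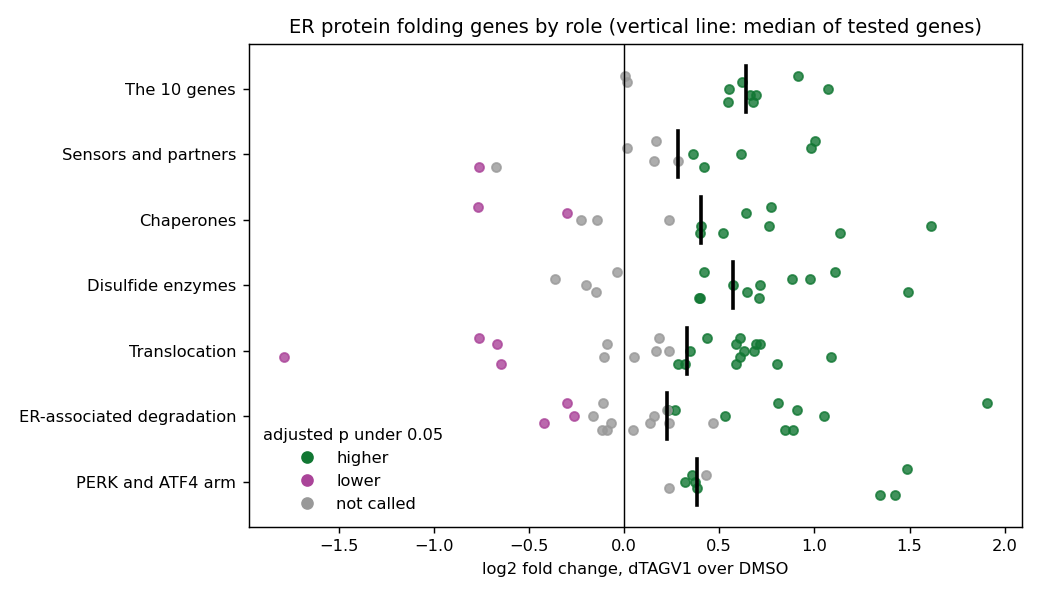
Log2 fold change (horizontal axis) of the 10 genes and of the tested genes of 6 lists by role, with green for higher and purple for lower at an adjusted p under 0.05, grey for not called, and a vertical line at the median of each list. Medians lie between 0.23 for ER-associated degradation and 0.64 for the 10 genes.

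The same motifs were then followed across all genes with a promoter window, a description chosen after the values above were seen. The ER stress response element was in windows of 25 genes, of which 15 were tested. Of these, 10 were higher, 1 lower and 4 not called, which includes HSPA5, HSP90B1, CALR and XBP1. Outside the 10 genes, 6 of 11 (54.5%) were higher, against 29.4% of all tested genes, with a median of 0.22. The share called there was 63.6%, near the 57.9% of all tested genes. There CANX, CRELD2, PDIA6, ERO1B, EIF2A and SERP1 were higher, SYNPO was lower, and ALG12, FICD, TMEM120A and TRIM5 were not called. CANX and PDIA6, a lectin chaperone and a disulfide isomerase, had log2 fold changes of 0.52 and 0.72. Element II was in windows of 19 genes, 14 of them tested, of which 2 were higher, 5 lower and 7 not called, with a median of 0.00. The 50% called was near the 57.9% of all tested genes, and 14.3% were higher, against 29.4%. Nothing particular about genes with either motif is read from such small counts. Besides HERPUD1 and SDF2L1, HYOU1 of the chaperone list and NUCB1, which is in none of the lists, were among those not called, at 0.24 and -0.01. The lists are short, they share genes with the lists above, and the difference between the motifs was not tested.

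Reads on the opposite strand were rare at these genes. HERPUD1, SDF2L1, ATF6, ERN1 and DNAJB9 had 0 in all 8 libraries, and HSPA5, XBP1, CALR and PDIA4 had at most 5 in any. HSP90B1 was the exception with enough counts for a test, 14, 19, 22 and 18 with DMSO and 28, 31, 26 and 31 with dTAGV1. Its opposite-strand log2 fold change was 0.64 (SE 0.25, edgeR adjusted p = 0.0318 over 3324 genes, of which 48.4% were called and 24% called higher). These reads were 0.471 to 0.662 per 100 sense reads with DMSO and 0.551 to 0.864 with dTAGV1, ranges that overlap. C12orf73, a gene that overlaps HSP90B1 on that strand, had a log2 fold change of -0.21 in its own sense counts (edgeR, adjusted p = 0.228). Adjusted p-values of the opposite-strand result ran from 0.0216 to 0.0998 when each library was left out in turn.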

How the data were processed

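Per the labels' protocols, Trizol RNA went into the Lexogen QuantSeq forward 3′ kit. The deposited files give raw counts of reads per gene in STAR's layout, and the submitters' processing notes name fastp, STAR, HTSeq, DESeq2 and GRCh38. Annotation, versions and whether molecular identifiers were used are not given in the sources used here. Counts on the sense strand (column 3) were used, and exceeded opposite-strand counts 8.28 to 8.48 times. Rows for reads given to no gene held 56.7% to 62.8% of reads and stayed out of library sizes. Genes that overlap on 1 strand lose reads there, which leaves such values uncertain.

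Groups were compared with edgeR 4.0.16 in R 4.3.3 (filterByExpr, TMM, robust quasi-likelihood F test, Benjamini-Hochberg over all tested genes, threshold 0.05). The standard error is the absolute log2 fold change divided by the square root of F. In simulated counts of 12401 genes, 189 were changed. edgeR recovered 41.3%, 85.2% and 100% of those changed by 0.5, 1 and 2 on the log2 scale, with 9 false calls. In the data 57.9% of tested genes were called, so these rates need not hold there. Alternatives were DESeq2 1.42.0, RLE or library-size scaling, other filters, unstranded counts, a replicate term and leaving out each library. Replicates differed by more than sampling noise (chi-square per degree of freedom 1.82 to 5.09).

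The members and lists were chosen with earlier results of these data known. Named genes are the 10 members, NUDT21, up to 3 increases and 3 decreases per list at a mean of at least 10 CPM, genes overlapping a member (such as THAP5, PNPLA8 and C12orf73) and the 3 most like HSPA5 (PIP4K2A and HOXC6 among them). Others (HYOU1, SYVN1, ATF4, SRP9, RABEPK, FARSA, the epithelial and other cell markers, genes with a promoter element and untested genes) were named after their values were seen. Coordinates are those of GENCODE 29 on GRCh38. Protein sequences were not used here. The remaining gene of the 3 most like HSPA5 is not reported here.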

Additional observations from a re-analysis of the deposited data

Results flagged for a closer look

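In 4 of 74 sets of 4 libraries checked, 1 library stood apart by Dixon's criterion, and chance alone flags about 1 in 20. XBP1 was at 47.3 CPM in DMSO replicate 2, above the other DMSO libraries, and its log2 fold change was 0.96 without that library. PPIB was at 268 CPM in dTAGV1 replicate 4, below the other dTAGV1 libraries. DNAJC10 was at 120.1 CPM in DMSO replicate 2, the lowest of its group. ATF3 was at 168 CPM in dTAGV1 replicate 1, above the other dTAGV1 libraries. A signal also appeared in counts outside the main measurement, in the reads on the strand opposite to HSP90B1, where the log2 fold change was 0.64.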

How the results depend on the processing

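The 8 genes that rose kept direction and call under every alternative that tested them, with HSPA5 from 0.62 to 0.72, HSP90B1 from 0.47 to 0.59, XBP1 from 0.84 to 0.96 and ERN1 from 0.53 to 0.68. DNAJB9 was not tested with a mean of at least 100 counts, so 7 were then called. HERPUD1 and SDF2L1 passed in no alternative, and their sign changed. HERPUD1 was at -0.00733 with DESeq2, -0.00642 with RLE scaling, -0.0261 with unstranded counts, -0.0715 with library-size scaling, -0.0164 with a mean of at least 100 counts, -0.0197 without a filter and -0.0033 with the replicate block. SDF2L1 was at -0.0155 with unstranded counts, -0.0631 with library-size scaling, -0.00576 with a mean of at least 100 counts and -0.0102 without a filter. Leaving out each library gave -0.102 to 0.0501 for HERPUD1 and -0.0791 to 0.0945 for SDF2L1, and no direction is given for either.

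The filter at a mean of 100 counts tested fewer genes and called 2131 higher and 1989 lower in all, with 1 translocation gene and 0 sensors and partners lower. Disulfide enzymes called lower numbered 1 with RLE scaling, unstranded counts or the replicate block, and 3 with library-size scaling, which also put 5 degradation genes lower. Leaving out each library gave 0 to 1 disulfide enzymes and 1 to 2 sensors and partners called lower. The opposite-strand value of HSP90B1 was 0.53 to 0.77 over these fits and lost its call when DMSO replicate 1, 2 or 4, or replicate 2 or 3 of dTAGV1, was left out. The cause was not tested.

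Deviations of same-numbered libraries correlated at 0.130, -0.0173, 0.0230 and 0.0338, so the numbers were not taken as pairs, and the replicate block changed no call among the 10 genes. Library-size scaling shifted all genes by -0.07 in the median. DNAJB9, with 58 to 150 counts, is the least precise of the 10.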

Other observations

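CFIm recognises UGUA before poly(A) sites, so the annotated transcript ends of the 10 genes were searched for it, a description chosen after seeing the data. In the last 100 bases of the principal GENCODE 29 transcript with the longest part after the stop codon, UGUA occurred once in 7 of the genes, 4 times in HSP90B1 and not in ATF6 or PDIA4. Of 10628 tested genes with such an end, 55.5% held it at least once and 21.5% held it 2 or more times. The part after the stop codon was 123 bases in SDF2L1 and 1573 in HERPUD1, the pair of genes that did not pass the test, and 264 in HSP90B1 to 5416 in ATF6 among those that rose. The median of tested genes was 1162. Which poly(A) site a read came from is not in counts per gene.

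Genes next to 2 of the chaperones went down. RABEPK, on the other strand within 5 kb of HSPA5, had means of 56.7 CPM with DMSO and 30.9 with dTAGV1, -0.87 on the log2 scale (edgeR, adjusted p = 2.00e-07). FARSA, on the other strand within 5 kb of CALR, had means of 144 and 114 CPM, -0.35 on that scale (edgeR, adjusted p = 0.00108). SRP9, a subunit of the signal recognition particle, had the largest decrease of the 6 lists at -1.79, but at 15.4 CPM with DMSO and 4.30 with dTAGV1 it missed the mean of 10 CPM set for naming.

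Deviations from the group means followed those of HSPA5 closely for PIP4K2A and HOXC6, which were among the 3 highest of 9312 genes outside the 10, with Pearson's r of 0.97 for each. These were picked as the highest of many values over 8 libraries that share their depth, and are a description only. Within the 10 genes, r with HSPA5 ran from -0.30 for HERPUD1 to 0.71 for HSP90B1 and 0.72 for PDIA4.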
